A study of Homo sapiens with 4 samples.

Results

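The genes of the MHC class II pathway were examined for binding sites of ETS1 and RUNX1, which are DNA-binding transcription factors of blood cells, in 6T-CEM, a line of human T-ALL cells (acute leukaemia of the T lineage). The genes are HLA-DRA, HLA-DRB1, HLA-DPA1, HLA-DPB1, HLA-DMA, HLA-DMB, HLA-DOA and CD74, which serve antigen presentation, and CIITA and RFX5, which regulate the others. They are 10 of 19821 protein-coding genes on chromosomes 1 to 22 and X. A peak was assigned to a gene if it overlapped the gene's outermost RefSeq bounds or the 10 kb on either side by at least 1 bp, a rule that uses positions and no measured value. Binding was profiled by CUT&Tag, in which an antibody tethers Tn5 to bound chromatin and the fragments it cuts are sequenced. There were 2 libraries with an ETS1 antibody and 2 with a RUNX1 antibody (genotype and treatment of the cells are not given by the labels), each set against IgG. Whether an antibody's libraries came from separate cultures is not stated, so their spread may be technical.

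MHC class II molecules are pairs of an alpha and a beta chain that show peptides from endocytosed protein to CD4 T cells. HLA-DRA and HLA-DPA1 encode alpha chains and HLA-DRB1 and HLA-DPB1 beta chains of the presenting molecules. CD74 encodes the invariant chain that guides new class II molecules and fills their groove, HLA-DMA and HLA-DMB encode the chains of HLA-DM, which exchanges the remnant of the invariant chain for peptide, and HLA-DOA encodes the alpha chain of HLA-DO, which restrains HLA-DM. Their promoters share an X box, bound by the RFX complex of RFX5, RFXAP and RFXANK and by CREB proteins, and a Y box, an inverted CCAAT motif bound by NF-Y. CIITA is a coactivator that does not bind DNA itself and docks on these factors. In human T cells class II expression is known mainly as a mark of activation. The lists used here hold binding sites and no expression values.

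The 8 antigen presentation genes carried no peak of either factor in any of the 4 libraries, which was also true of 34.5% of all protein-coding genes, while both regulator genes carried RUNX1 and RFX5 also carried ETS1. Overlapping peaks of an antibody were merged, and a merged region was called reproducible when each library contributed a peak. ETS1 regions were found at 1 of 10 genes (RFX5) and RUNX1 regions at 2 of 10 (CIITA and RFX5). Among all protein-coding genes 27.5% had an ETS1 region and 62.3% a RUNX1 region in the same window, 27.2% had both and 37.4% had neither. Among the 8855 coding genes shorter than 20 kb, to which all 8 presentation genes and RFX5 belong, 29.7% had ETS1 and 57.1% RUNX1. Among the 10966 of 20 kb or more, to which CIITA (76.8 kb) belongs, 25.7% had ETS1 and 66.6% RUNX1. No peak at the 10 genes was held by only 1 library of an antibody.

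The ETS1 libraries each had 1 peak at the 10 genes and the RUNX1 libraries each had 4. The whole ETS1 lists held 6082 and 5625 peaks and the RUNX1 lists 25360 and 25001. The genes' share of the list, counted on chromosomes 1 to 22 and X, was 0.0165% and 0.0178% for ETS1 and 0.0158% and 0.0160% for RUNX1. The difference in number, -3 peaks (ETS1 minus RUNX1), exceeded the spread between libraries, which was 0. An exact permutation test of the 4 libraries gave p = 0.333 (two-sided, 6 arrangements), the smallest that 2 against 2 libraries allow. Of the 4 RUNX1 regions at these genes 1 overlapped an ETS1 region (25%, 95% Wilson interval 4.56 to 69.9), against 20.6% of all 22802 RUNX1 regions. The share was 50% when peaks under a −log10 q of 20 were left out, and again when each library was held to the same number of peaks. In both settings the RUNX1 regions left were that at RFX5 and 1 at CIITA, and the overlap was still the one at RFX5. The share over all RUNX1 regions under these settings is not given, so 50% cannot be set against 20.6%. The interval covers counting error only and treats the 4 regions as independent, though 3 of them lie at CIITA.

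RFX5 encodes the DNA-binding subunit of the RFX complex and was the only gene of the pathway with both factors. It lies on the reverse strand at chr1:151340640-151347252 (hg38), so its upper-coordinate end is its start. The ETS1 region (chr1:151346939-151347596) and the RUNX1 region (chr1:151346851-151347709) both covered this start, which is also crossed by the antisense long non-coding gene RFX5-AS1 (chr1:151347010-151347891). CUT&Tag reads do not tell which of these overlapping genes a bound factor serves. Among coding genes with a RefSeq promoter window (250 bases before to 50 after a start), an ETS1 region covered a window in 19.5% and a RUNX1 region in 47.1%. The sequence of RFX5 is shown because it is the site in the pathway where both factors were found. The first window belongs to the outermost start and holds the summits of ETS1 library 1 and of both RUNX1 libraries, 7 bp inside the gene. The second belongs to a start further inside and also holds the summit of ETS1 library 2. The table has another RFX5 window, not shown, at chr1:151346807-151347106, which overlaps the second, holds that summit too and was covered by both factors. It had 1 match to each of the ETS-type cores and 1 to the RUNX-type core named next. The sequences shown are RefSeq sequences of the reverse strand in GRCh38.p14, at chr1:151347203-151347502 and chr1:151346950-151347249, and share their overlapping bases. Capitals mark CCAAT boxes, the ETS-type cores CCGGAA and GGAAGT and the RUNX-type core TGNGGT, on either strand.
RFX5 window 1: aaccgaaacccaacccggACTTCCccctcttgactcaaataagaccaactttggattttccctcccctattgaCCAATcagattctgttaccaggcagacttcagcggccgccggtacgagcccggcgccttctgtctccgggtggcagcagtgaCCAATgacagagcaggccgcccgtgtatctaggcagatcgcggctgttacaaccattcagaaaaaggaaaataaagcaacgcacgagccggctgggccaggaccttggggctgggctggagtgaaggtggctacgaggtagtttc
RFX5 window 2: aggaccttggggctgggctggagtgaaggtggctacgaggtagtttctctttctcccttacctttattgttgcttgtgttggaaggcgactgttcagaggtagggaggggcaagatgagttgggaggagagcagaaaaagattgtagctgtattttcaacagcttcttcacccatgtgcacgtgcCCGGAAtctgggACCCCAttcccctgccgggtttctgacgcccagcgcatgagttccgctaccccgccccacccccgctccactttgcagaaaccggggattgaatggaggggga

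At RFX5 the fold over IgG, the antibody control, was 7.06 and 7.58 in the ETS1 libraries (mean 7.32 ± 0.368, SD, n = 2). It was 16.9 and 17.8 in the RUNX1 libraries (17.4 ± 0.631). These folds are the authors' own values per peak and serve only to rank peaks within a list. By that rank the RFX5 site stood in the upper part of both lists, with 70.1% of ETS1 regions and 82.5% of RUNX1 regions lower in fold. The number of reads or fragments stacked at the summit (the pileup, solved from the deposited fold and p) was 68 and 58 for ETS1 and 191 and 192 for RUNX1. The IgG expectation there was 8.78 and 6.79 for ETS1 and 10.3 and 9.83 for RUNX1. Ranked by pileup, 58.4% of ETS1 regions and 84.0% of RUNX1 regions were lower. The ETS1 summit lay on the same base as the RUNX1 summit in the libraries numbered 1 and 161 bp from it in those numbered 2, with the ETS1 summit further inside the gene.

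The ETS-type core CCGGAA in the second RFX5 window lay 22 bp from the summit of ETS1 library 2 and 184 bp from that of ETS1 library 1. The GGAAGT core of the first window, which reads ACTTCC on the strand shown, lay 236 bp and 398 bp from the summits of ETS1 libraries 1 and 2. A RUNX-type core, ACCCCA as shown, lay 196 bp from both RUNX1 summits. Of promoter windows covered by ETS1, 35.3% held CCGGAA and 30.7% GGAAGT, against 17.3% and 22.8% of all 34961 windows searched. TGNGGT was held by 42.0% of the windows covered by RUNX1 and by 43.2% of all windows. CCGGAA and GGAAGT can overlap, sharing GGAA, and both strands were searched. A match describes letters and is not a mapped binding site.

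CIITA, the coactivator, had 3 RUNX1 regions and no ETS1 region, and 2 of the 3 lay at the starts of other genes. CIITA spans chr16:10866206-10943021, and both ETS1 libraries had their closest summit at a distance of 122 kb. The RUNX1 region with the highest fold, at chr16:10944200-10945167, had 16.1 and 14.5-fold (15.3 ± 1.11, SD, n = 2) and pileups of 159 and 137. Its summits lay 1552 bp past the upper-coordinate end of CIITA and 9 bp from the start of CLEC16A, the next gene. The region at chr16:10941686-10942560 had 6.36 and 5.53-fold (5.95 ± 0.590), with summits inside CIITA but 40 and 41 bp from the start of DEXI, a gene that overlaps the end of CIITA. The third, at chr16:10870962-10871418, was the only region inside CIITA away from starts of other genes. It had 4.03 and 4.63-fold (4.33 ± 0.427), with pileups of 28 and 37 and summits 5003 and 4897 bp from the lower-coordinate end. Of all RUNX1 regions, 78.6%, 30.0% and 11.9% were lower in fold than the sites at CLEC16A, at DEXI and inside CIITA, in that order. No peak of any library lay at the lower-coordinate end of CIITA itself. CIITA is known to be transcribed from several alternative promoters, and starts inside the gene were not used here.

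**Figure D1:**
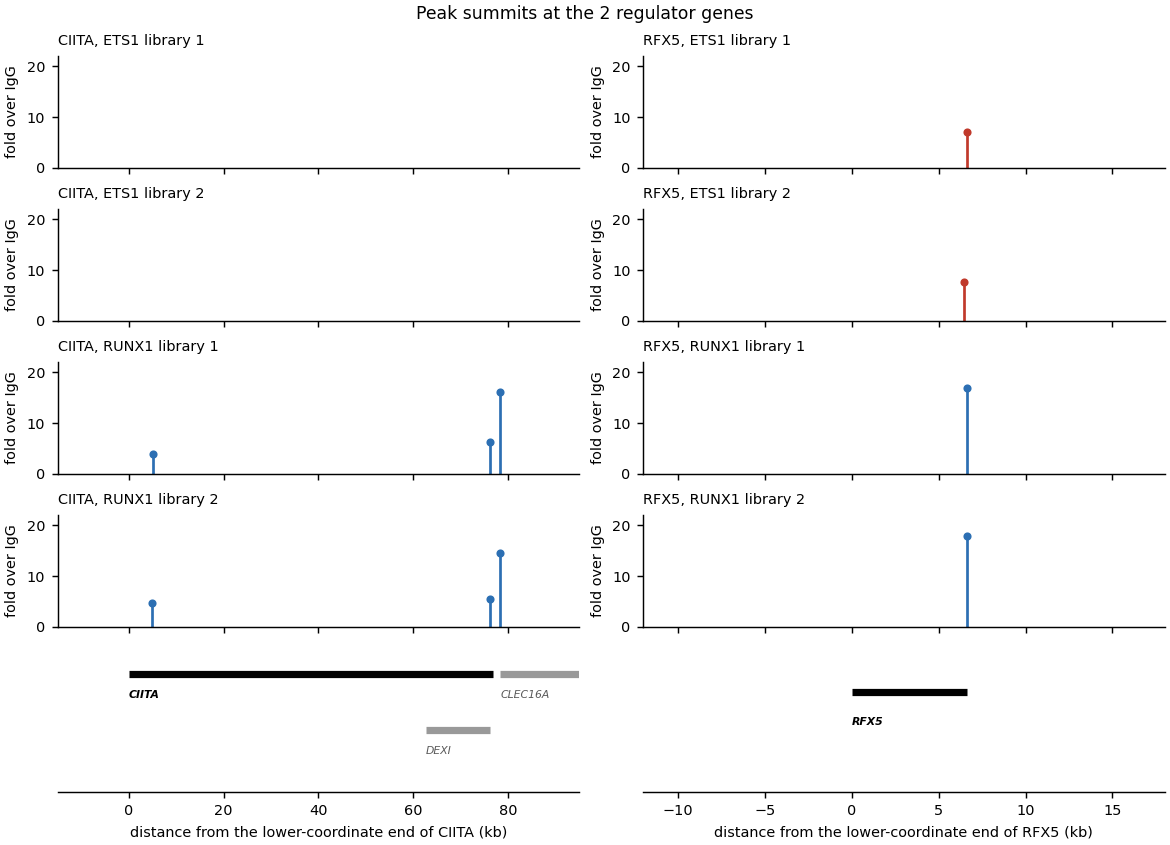
Fold over IgG of each peak (vertical axis) at its summit's distance from the lower-coordinate end of CIITA (left) or RFX5 (right) in kb, for ETS1 libraries 1 and 2 above RUNX1 libraries 1 and 2, with genes as bars (pathway genes black). At CIITA the peaks belong to RUNX1 alone, the highest of 16.1 and 14.5-fold at the start of CLEC16A, and at RFX5 all 4 libraries have a peak at the upper-coordinate end.

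The 7 HLA genes of the pathway lay in 3 stretches of chromosome 6 without a peak in any library. HLA-DRA (chr6:32439887-32445046) and HLA-DRB1 (chr6:32578775-32589848) lay in a stretch of 635 kb, chr6:32202768-32837757. It held 10 coding genes in all, of which 8 encode class II chains: HLA-DRA, HLA-DRB5, HLA-DRB1, HLA-DQA1, HLA-DQB1, HLA-DQA2, HLA-DQB2 and HLA-DOB. The other two were TSBP1 and BTNL2. HLA-DMB (chr6:32934636-32941028) and HLA-DMA (chr6:32948618-32953097) were the only coding genes in a stretch of 73.1 kb, chr6:32894936-32968027. HLA-DOA (chr6:33004182-33009591), HLA-DPA1 (chr6:33064569-33080748) and HLA-DPB1 (chr6:33075990-33089696) shared a stretch of 227 kb, chr6:32973131-33199841, with COL11A2. Over the genome there were 26917 stretches between neighbouring peaks. Counting the longest class II stretch itself, 77 of them held at least 10 coding genes, and 17 of these were no longer than it. By length alone, 897 stretches were at least as long. At least as many coding genes as in the HLA-DMA and HLA-DOA stretches were held by 1594 and 485 stretches. CD74 was the only coding gene wholly inside a stretch of 91.9 kb on chromosome 5, chr5:150357862-150449738, and 3862 stretches held at least 1.

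Several genes that bound or separate the stretches of chromosome 6 had regions of both factors. At TAP2, a subunit gene of the class I peptide transporter, which ends the first stretch, the fold was 7.88 and 6.74 for ETS1 and 17.4 and 17.0 for RUNX1. Over the start of the immunoproteasome gene PSMB8 the fold was 11.6 and 10.9 for ETS1 and 21.6 and 30.9 for RUNX1. A further RUNX1 region near the other end of PSMB8 had the highest fold of the regions from GPSM3 to HSD17B8, which flank the class II genes, with 52.4 and 49.99, and held no ETS1 region. By pileup it was not the highest, with 195 and 179 against 288 and 288 over the PSMB8 start and 438 and 402 at BRD2. BRD2, a bromodomain gene between HLA-DMA and HLA-DOA, had ETS1 regions of 11.97 and 10.8-fold and of 11.4 and 12.8-fold under a single RUNX1 region of 27.2 and 25.1-fold. Between PSMB9 and HLA-DMB, both factors met at the long non-coding gene LOC100294145, with 4.51 and 4.49-fold ETS1 and 6.37 and 6.24-fold RUNX1. Of a chosen list of 9 genes in or beside this region that encode no class II chain, 8 had ETS1 and 8 had RUNX1 in the gene or within 10 kb, BTNL2 being the exception for both, against 27.5% and 62.3% of all coding genes. COL11A2 held no peak itself and counted only through regions near the start of RXRB within 10 kb. The list is a selection and leaves out TSBP1, which lies in the longest of these stretches without a peak. The 9 genes lie close together and share regions, so they are not independent.

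**Figure D2:**
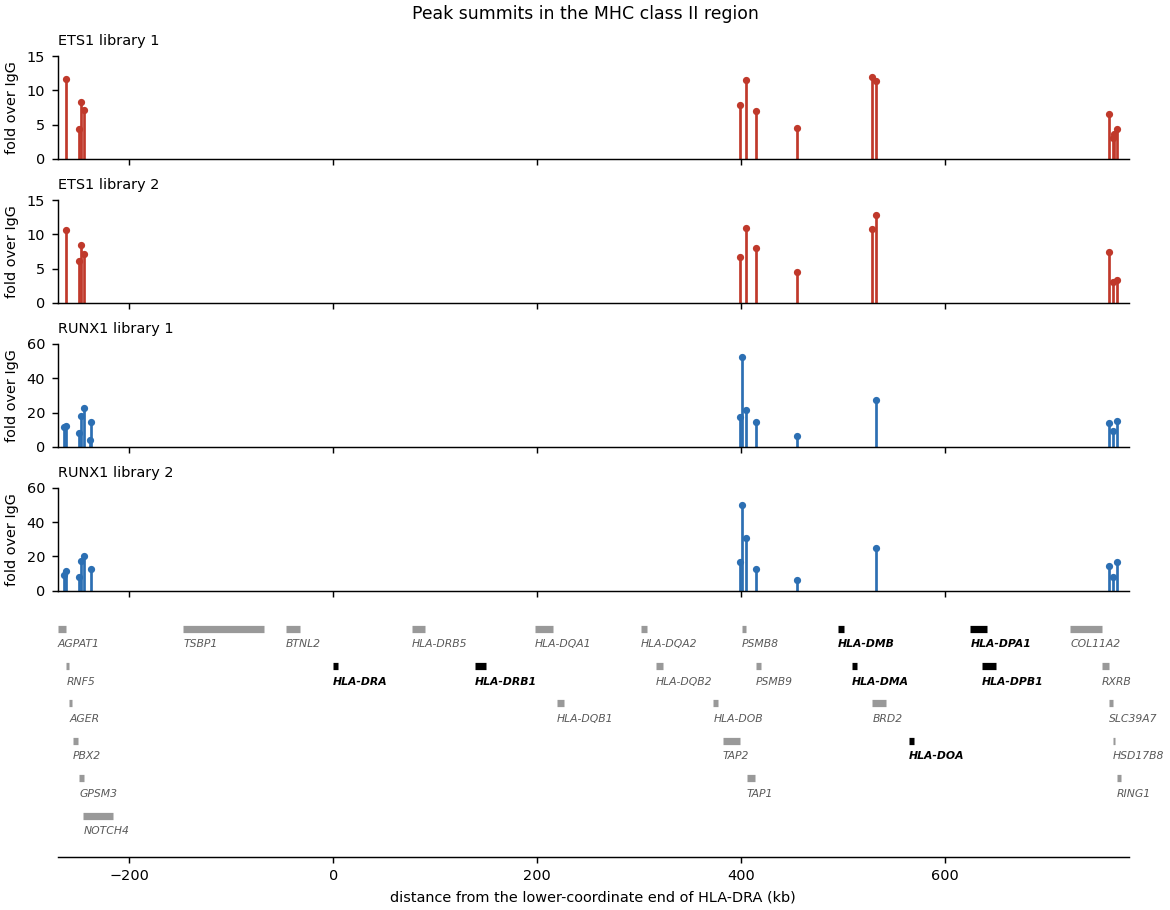
Fold over IgG of each peak (vertical axes, which differ between antibodies) at its summit's distance in kb from the lower-coordinate end of HLA-DRA, for ETS1 libraries 1 and 2 above RUNX1 libraries 1 and 2, with coding genes as bars (pathway genes black). Between the class II genes the peaks of all 4 libraries cluster at TAP2 to PSMB9, at LOC100294145 and at BRD2. Further peaks of all 4 lie toward both edges of the map, around GPSM3 and around RXRB and HSD17B8, and none lies over an HLA class II gene.

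Distance to the nearest peak summit separated the presentation genes into near and far ones. HLA-DMA was the nearest, with an ETS1 summit 15.6 kb away in both libraries and a RUNX1 summit 18.7 kb away in both, all at BRD2. HLA-DMB followed with 27.6 kb for ETS1 and 30.8 kb for RUNX1, then HLA-DOA with 32.3 kb for ETS1 and 32.3 and 32.4 kb for RUNX1. CD74 (chr5:150401639-150412910) had its nearest summits of both factors at the start of the ribosomal protein gene RPS14, 36.9 kb away for ETS1 and 37.0 kb for RUNX1. For HLA-DPA1 and HLA-DPB1 the nearest summits were 92.7 and 104 kb away for both factors. For HLA-DRB1 they were 249 kb away for both, and for HLA-DRA 244 kb for ETS1 and 238 kb for RUNX1. Libraries of an antibody differed by far less than neighbouring genes in this order did. Over all coding genes the median distance was 78.6 and 87.7 kb in the ETS1 libraries and 0.177 and 0.196 kb in the RUNX1 libraries. The RUNX1 distance of HLA-DRB1 was larger than that of 91.1% and 91.0% of coding genes in the RUNX1 libraries, and its ETS1 distance larger than that of 67.4% and 65.6% in the ETS1 libraries. Thus distances of ETS1 at HLA-DMA, HLA-DMB, HLA-DOA and CD74 were shorter than the median coding gene's, and those of RUNX1 were longer at all 8 presentation genes.

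**Figure D3:**
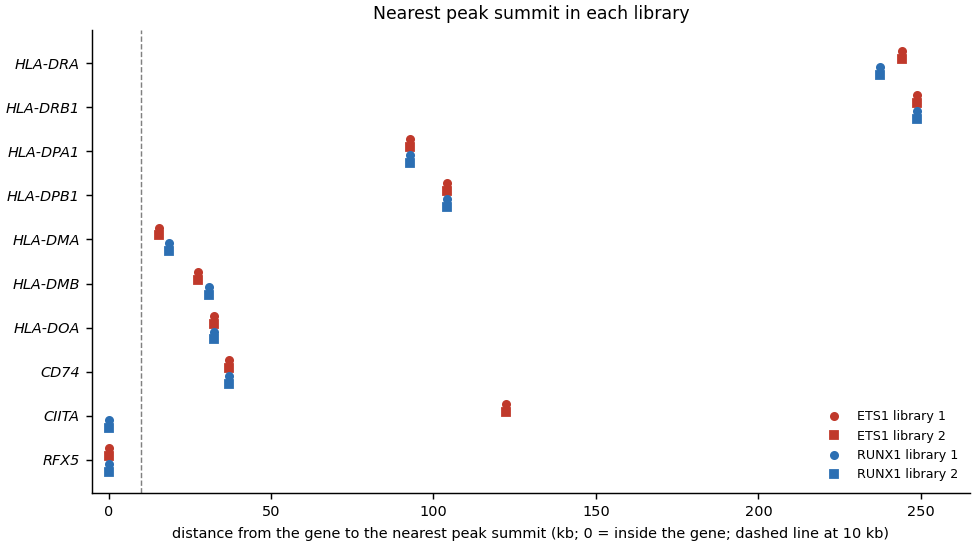
Distance in kb from each gene to the nearest peak summit (horizontal axis, 0 inside the gene, dashed line at 10 kb) in the ETS1 libraries (red) and the RUNX1 libraries (blue), with circles for library 1 and squares for library 2. All 8 presentation genes lie beyond 10 kb in every library, from 15.6 kb for ETS1 at HLA-DMA to 249 kb at HLA-DRB1, while RFX5 is at 0 for both antibodies and CIITA for RUNX1 alone.

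Where promoter windows could be read for presentation genes, 3 held the letters of an X-box core followed by a CCAAT box in either orientation. The box was inverted (ATTGG), as in a Y box, in HLA-DRB1 and HLA-DOA, and forward in CD74. These stretches are shown because they hold letters of the motifs that the RFX complex and NF-Y are known to bind and lay under no peak, and binding of those factors was not measured. Capitals mark the X-box core AGNAAC and the CCAAT box, which can read ATTGG. The pair was required in the direction of transcription with 15 to 45 bases between, a definition chosen with the sequences in view. All are RefSeq sequences of the reverse strand in GRCh38.p14, from chr6:32589870-32589947, chr6:33009634-33009712 and chr5:150412939-150413011.
HLA-DRB1: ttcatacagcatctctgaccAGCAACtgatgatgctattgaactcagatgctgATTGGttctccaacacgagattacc
HLA-DOA: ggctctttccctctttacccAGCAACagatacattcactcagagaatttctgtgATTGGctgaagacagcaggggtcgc
CD74: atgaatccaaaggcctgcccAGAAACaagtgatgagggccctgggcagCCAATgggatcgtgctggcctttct
The motifs were 27 bases apart in HLA-DRB1, 28 in HLA-DOA and 22 in CD74, with the X-box core 79, 101 and 81 bases before the start. The same pair occurred in 1.36% of all 34961 promoter windows, in 1.65% of those covered by ETS1 and in 1.13% of those covered by RUNX1. The windows of HLA-DMA, HLA-DMB, HLA-DPA1 and HLA-DPB1 did not hold it by this spelling. In all, 8 of the 10 pathway genes matched the promoter table, HLA-DRA and CIITA being the others. Of the 7 presentation genes with a window, CCGGAA was found for HLA-DPA1 alone, GGAAGT in the windows of HLA-DRB1 and HLA-DOA, and TGNGGT in those of CD74 and HLA-DOA.

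Genes for proteins of the X and Y boxes carried RUNX1 in every case, and class II chain genes outside the 10 carried neither factor. The 6 other class II chain genes (HLA-DRB5, HLA-DQA1, HLA-DQB1, HLA-DQA2, HLA-DQB2 and HLA-DOB) had neither factor within 10 kb, as did 37.4% of all coding genes. All 6 lie in the same 635 kb stretch without a peak as HLA-DRA and HLA-DRB1, so they are not independent. The other 6 genes for proteins of the X and Y boxes all had RUNX1, as did 62.3% of all coding genes. RFXANK, NFYA and NFYC also had ETS1, as did 27.5% of all coding genes. At RFXANK, a subunit gene of the RFX complex, the fold was 7.28 and 6.53 for ETS1 and 12.4 and 13.2 for RUNX1. At NFYA, a subunit gene of NF-Y, it was 8.16 and 5.43 for ETS1 and 18.4 and 19.3 for RUNX1, in a region also at the start of OARD1. At NFYC, another NF-Y subunit gene, it was 5.28 and 7.20 for ETS1 and 13.4 and 14.1 for RUNX1. RFXAP, the remaining RFX subunit gene, had RUNX1 alone, with the lowest fold of the group at 3.17 and 3.05. NFYB (5.43 and 5.27-fold) and CREB1 (8.63 and 9.005-fold) also had RUNX1 alone.

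Interferon gamma induces CIITA through its receptor and the kinases JAK1 and JAK2. All 6 genes of this axis had a RUNX1 region and 2 an ETS1 region. Among those described here, the highest RUNX1 fold per gene averaged 5.82 ± 0.0518 at IFNGR1, 8.34 ± 0.0428 at IFNGR2, 8.77 ± 1.24 at JAK1, 4.19 ± 0.437 at JAK2 and 8.77 ± 0.589 at IRF1 (SD, n = 2). ETS1 was at IRF1, an interferon-responsive factor gene, with 3.92 and 3.86-fold. Of 7 genes for class II processing and turnover, 4 had RUNX1 and none ETS1. LGMN, which encodes a lysosomal protease, had the highest RUNX1 fold with 32.2 and 34.3, and MARCHF8, a ubiquitin ligase gene, had 18.7 and 17.8. CTSS, CTSL and MARCHF1 had no reproducible region. The counts of RUNX1, read against 62.3% of all coding genes, were 6 of 6, 6 of 6 and 4 of 7 in these groups, and those of ETS1, read against 27.5%, were 3 of 6, 2 of 6 and 0 of 7. No test was made over genes, which are not replicates.

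**Figure D4:**
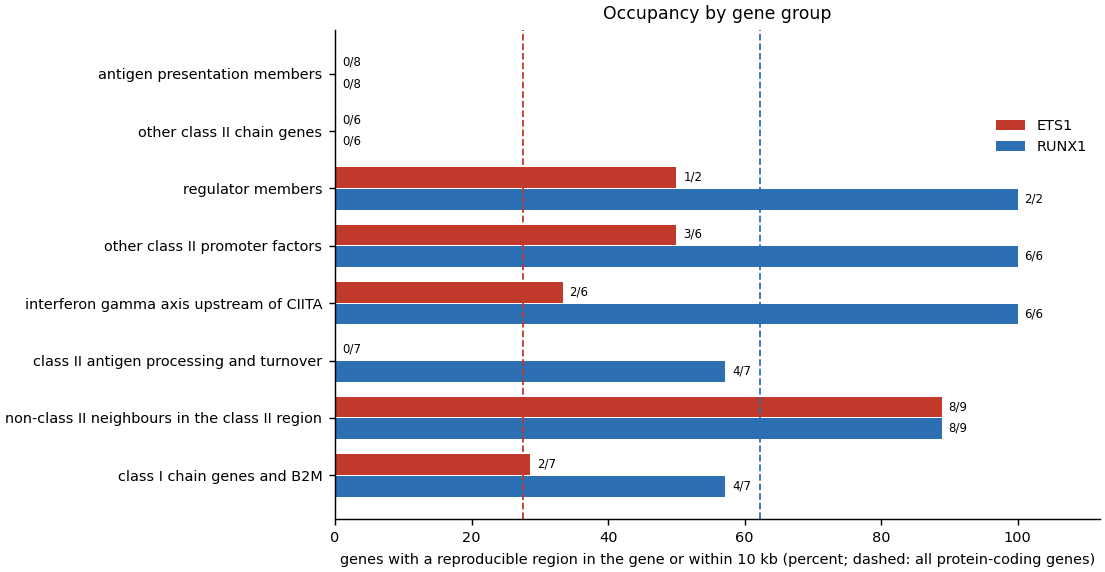
Percent of the genes in each group with a reproducible ETS1 region (red, upper bar) or RUNX1 region (blue, lower bar) in the gene or within 10 kb, with counts beside the bars and the share of all protein-coding genes as dashed lines (27.5% and 62.3%). The 8 presentation genes and the 6 other class II chain genes are at 0 for both factors, and the 9 neighbours are at 8 for both.

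The class I chain genes and B2M, relatives of the class II genes in structure, had peaks at some members. Of these 7 genes 2 had ETS1 and 4 had RUNX1, counts near the shares of all coding genes (27.5% for ETS1 and 62.3% for RUNX1). HLA-C had RUNX1 of 3.66 and 3.83-fold, with the region at its own start. In the window of HLA-E the highest fold was 4.82 and 4.88 for ETS1 and 38.1 and 40.05 for RUNX1, at different summits. HLA-E itself had no RefSeq promoter window, so its own start was not among those measured. Of the starts with a window, that of LOC105375012 was nearest to both summits, at 26832 bp for ETS1 and 17141 bp for RUNX1. For B2M, the light chain gene on another chromosome, the highest fold was 3.76 and 3.62 for ETS1 and 12.1 and 10.7 for RUNX1. These too were different sites. The ETS1 summit lay 107 bp from the B2M start, and the RUNX1 summit was 11905 bp from its nearest start, that of TRIM69. Class I and class II genes differ between people and between close copies, HLA-DRB1 and HLA-DRB5 among them, and the treatment of reads with several matches is not given. The part of this in the absence of peaks was not tested. A peak had to pass a threshold near a −log10 q of 5 (lowest values 5.003 to 5.031), with a 1st percentile of fold from 2.68 to 2.81 over the 4 libraries, and binding below it is not in the lists.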

How the data were processed

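CUT&Tag peak lists of 4 libraries were used. Per the submitters' processing notes, bcl2fastq 2.17, Bowtie2 and MACS3 3.0.0a6 were used with hg38. Peak names in the deposited files show 1 list per library, made by the authors with IgG as control, and each list gives the fold over IgG as a ratio and −log10 p and −log10 q. The deposited score column follows −log10 q and was not used. The sources used here give neither the threshold for calling nor the treatment of duplicates and multiply matching reads, nor the Bowtie2 version. Total reads are unknown. The median summit pileup was 54 and 51 for ETS1 and 75 and 71 for RUNX1, solved from fold and −log10 p on the MACS formula, a step tested on simulated data. All peaks (100%) matched within 0.01, or within a margin that grew with −log10 p for the most significant peaks.

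Peaks on chromosomes 1 to 22 and X were merged within an antibody, and regions with a peak of both libraries kept. Gene bounds, starts and promoter sequences are RefSeq, GRCh38.p14. All 63 genes of 10 fixed lists matched, and class I genes were added later. Some genes of the lists are not reported here. All genes of the pathway are named, and of other lists those with both factors, the highest fold or a position beside a region. Further genes of those lists, the motif letters and the X and Y box search were picked after values or sequences were seen. Members and lists were chosen with earlier results of these data known. Python 3.11.15, numpy 2.4.6, pandas 2.3.3 and scipy 1.17.1 were used. Alternatives were windows of 0, 1 and 25 kb, −log10 q of at least 10 and 20, summits, equal peak numbers, other overlaps, and each replicate left out.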

Additional observations from a re-analysis of the deposited data

How the results depend on the processing

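With a 25 kb window the regions at BRD2 came within reach of HLA-DMA, so that 1 presentation gene had ETS1 and 1 had RUNX1. Genes with ETS1 then numbered 2 and genes with both factors 2, with 3 ETS1 peaks and a mean of 7.5 RUNX1 peaks per library. The mean number of RUNX1 peaks fell to 2.5 with −log10 q of at least 20, where the site inside CIITA was lost in both RUNX1 libraries and the DEXI start in library 2, and to 2 with 5611 peaks per library, which kept RFX5 and the CLEC16A start. The difference (ETS1 minus RUNX1) was then -1.5 and -1 peaks and the share of RUNX1 regions with ETS1 50% in each. In both of these settings CIITA and RFX5 still had RUNX1 and no presentation gene had either factor. Gene body only, a 1 kb window, −log10 q of at least 10, summits inside the window and other overlap rules left the counts within 1.5 times. Leaving out replicate 1 or replicate 2 gave 1 gene with ETS1, 2 with RUNX1 and 4 RUNX1 peaks each time. With the libraries paired by number (replicate block), the difference of -3 peaks gave an exact sign-flip p of 0.5, the smallest 2 pairs allow. The numbers are not known to pair the libraries. Folds were the same by the peak nearest to the median summit. Ranked by pileup or −log10 q, an alternative chosen after seeing the data, the site inside CIITA exceeded 6.17% or 5.38% of RUNX1 regions. The site inside CIITA rested on a pileup of 28 and 37, and total depth is unknown.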

Other observations

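Marker genes of cell types were looked at in the same way. Of 7 T-cell markers 5 had ETS1 and 7 had RUNX1 within 10 kb, of 6 B-lineage markers 2 had ETS1 and 4 had RUNX1, and of 6 myeloid markers 0 had ETS1 and 5 had RUNX1, against 27.5% and 62.3% of all coding genes. The highest RUNX1 folds among them were within 10 kb of CD7 (69.9 and 67.9), a surface protein of T cells, and of CD79A (66.5 and 67.3), a B-cell receptor subunit gene. The summit of that region near CD79A lay 3352 bp from the start of ARHGEF1. CD79A had 6 RUNX1 regions within 10 kb, and its own promoter window was covered by RUNX1. MS4A1 and CD79B, B-cell genes, and ITGAX, a myeloid gene, had neither factor. Among myeloid markers, RUNX1 regions near CD14 and LYZ lay close to the starts of their neighbours, 25 bp from TMCO6 and 177 bp from YEATS4. This did not hold for the remaining myeloid markers with RUNX1. Their regions lay at least 4441 bp from the nearest start with a promoter window.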
